A study of Mus musculus with 29 samples.

Results

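The genes described here are 39 macrophage, monocyte and general myeloid genes that resident and recruited cells of the liver share. They were listed by name, with earlier results of these data known. All 39 were found among the 55421 genes of the count table, and all 39 had at least 1 count. The samples were whole livers of female and male mice, profiled by RNA-seq of polyadenylated RNA. HDM201 is an inhibitor of MDM2, the ubiquitin ligase that keeps p53 low, and the study asked what its short use does to aged liver. Old C57BL/6J mice (20 months for females, 24 months for males by the labels) received 10 mg/kg HDM201 or a phosphate-buffered methylcellulose vehicle by oral gavage each day for 14 days. Young mice, 5 months old and labelled C57BL6/N, received the vehicle, so age and substrain cannot be told apart in any comparison of old with young. Old females and old males differed in age too, so sex and age cannot be told apart between them. Counts were analysed for 5 young vehicle, 4 old vehicle and 5 old HDM201 females, and for 4 young vehicle, 4 old vehicle and 5 old HDM201 males.

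Macrophages clear dead cells, debris and microbes, and the liver holds a large resident population of them, the Kupffer cells, that lines the sinusoids. Monocytes arriving from blood can join these cells and take on part of their programme. Both depend on the growth factor receptor CSF1R and on the transcription factor PU.1, and both take up opsonized targets through complement and Fc receptors whose signals run through the adaptors TYROBP and FCER1G. In lipid-loaded or injured tissue some macrophages turn on a set of genes around the lipid receptor TREM2. Since RNA came from whole liver, fewer cells of a type and less RNA per cell cannot be told apart.

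Between 16485900 and 23570458 reads per mouse fell on genes (median 19149235), and values are given as CPM (reads of a gene scaled to a common library size) on one scale for all 27 mice. The 8 hepatocyte markers examined summed to between 80962 and 164036 CPM. In old HDM201 male 5 the level of 7 members lay far above the other 4 mice of its group, and in young vehicle male 2 that of 4 members lay above the other 3. The results in males are therefore also given without the first of these mice. Differences are log2 fold changes with their standard error (SE), tested with edgeR across all genes, and a gene was called at an adjusted p (Benjamini-Hochberg FDR) under 0.05. The share of all tested genes called the same way is given beside the first count of members in each comparison.

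Averaged over the 39 genes in the 27 mice with counts, myeloid transcripts stood higher in old than in young vehicle livers of both sexes. They stood lower in HDM201-treated than in vehicle-treated old females. The 2 males without counts, described at the end, do not enter these means. In old males the treated and vehicle livers overlapped. The mean of log2(CPM + 1) over the members was 2.91 ± 0.11 (SD, n = 5) in young vehicle females, 3.96 ± 0.30 (n = 4) in old vehicle females and 3.31 ± 0.13 (n = 5) in old HDM201 females. Single old vehicle females stood at 3.60, 4.22, 3.83 and 4.18, and every one of them lay above all old HDM201 females, at 3.35, 3.16, 3.38, 3.20 and 3.46, and above all young females, at 3.07, 2.93, 2.80, 2.86 and 2.87. In males the mean was 2.42 ± 0.25 (n = 4) in young vehicle, 3.40 ± 0.49 (n = 4) in old vehicle and 3.72 ± 0.32 (n = 5) in old HDM201 livers. Old vehicle males were spread widely, at 3.72, 3.11, 3.90 and 2.87, and overlapped the old HDM201 males, at 3.72, 3.31, 3.63, 3.75 and 4.21. No test was run on this mean, because the members were put together with earlier results of these data known.

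**Figure D1:**
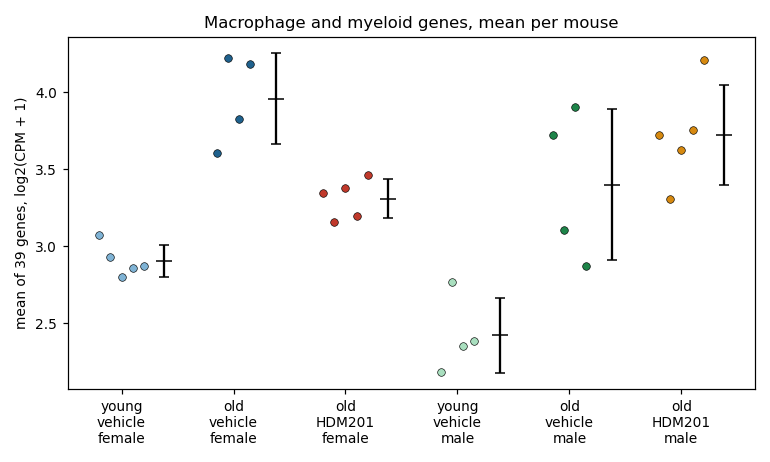
Mean of log2(CPM + 1) over the 39 macrophage and myeloid genes in each mouse (points), by group, with the group mean and SD beside them. All 4 old vehicle females lie above the old HDM201 and the young vehicle females, while old vehicle and old HDM201 males overlap.

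Measured per length of annotated exon, the most abundant members in old vehicle females were Lyz2 at 97.0 ± 38.8 CPM per kb (SD, n = 4) and the complement chains C1qa at 77.1 ± 22.5 and C1qb at 63.4 ± 17.2. The protease gene Ctss followed at 39 ± 7.64 and C1qc at 33.1 ± 9.86. Neighbours in this order differed by less than 1 SD, except that C1qb and Ctss differed by more. At the low end were Itgam at 0.365 ± 0.198 CPM per kb, Ccr2 at 0.417 ± 0.0438, Sirpb1a at 0.460 ± 0.381, Cx3cr1 at 0.512 ± 0.116, Trem2 at 0.528 ± 0.0798 and Gpnmb at 0.549 ± 0.242, and neighbours among these 6 differed by less than the larger of their SDs. Itgam overlaps Gm49368 on the same strand in the annotation, so its level is uncertain.

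The first comparison asked what HDM201 changed in old female liver. Of the 39 members, all tested, 27 were lower in HDM201-treated than in vehicle-treated old females and 0 were higher, where 2.9% of 14445 genes were called lower and 2.35% higher. The median log2 fold change of the members was -0.95, beside 0.001 over all genes tested. For 22 members every treated mouse lay below every vehicle mouse, as did 4.63% of all genes. The 12 members not called were Mrc1, Cd14, Ccr2, Cx3cr1, Itgam, Itgax, Clec7a, Trem2, Gpnmb, Cd9, Fcgr2b and Lcp1. The number called depended on single mice. It was 14 without old vehicle female 2, 15 without old vehicle female 4, 16 without old HDM201 female 4 and 17 without old HDM201 female 2, and the members' median lay between -1.12 and -0.76 over all 9 omissions. Csf1r, Ctss, C1qa, C1qc, Fcer1g, Fcgr1, Ncf1, Ncf4, Spi1, Ptprc, Laptm5, Cd52, Cd53 and Coro1a, 14 in all, were called in each of the 9. A fit of all 6 groups together called 11 members lower, where it called 0.647% of all genes lower. On the deposited FPKM values limma called 5 members lower on log2(FPKM + 1), 6 on log2(FPKM + 0.1) and 0 on log2(FPKM + 1) without a filter, where 0.134%, 0.161% and 0.0103% of all genes were.

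The second comparison set old against young vehicle females. Here 35 members were higher in old liver and 0 lower, where 16.8% of 14233 genes were called higher and 15% lower. The median over the members was 1.30, beside 0.0094 over all genes, and 30 members did not overlap between the groups, as did 12.5% of all genes in that direction. Mrc1, Cd9, Fcgr2b and Lcp1 were not called. Because the old vehicle females enter both comparisons, a high value in them moves both in opposite directions, and the values of each comparison are given side by side below without a test of their relation.

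**Figure D2:**
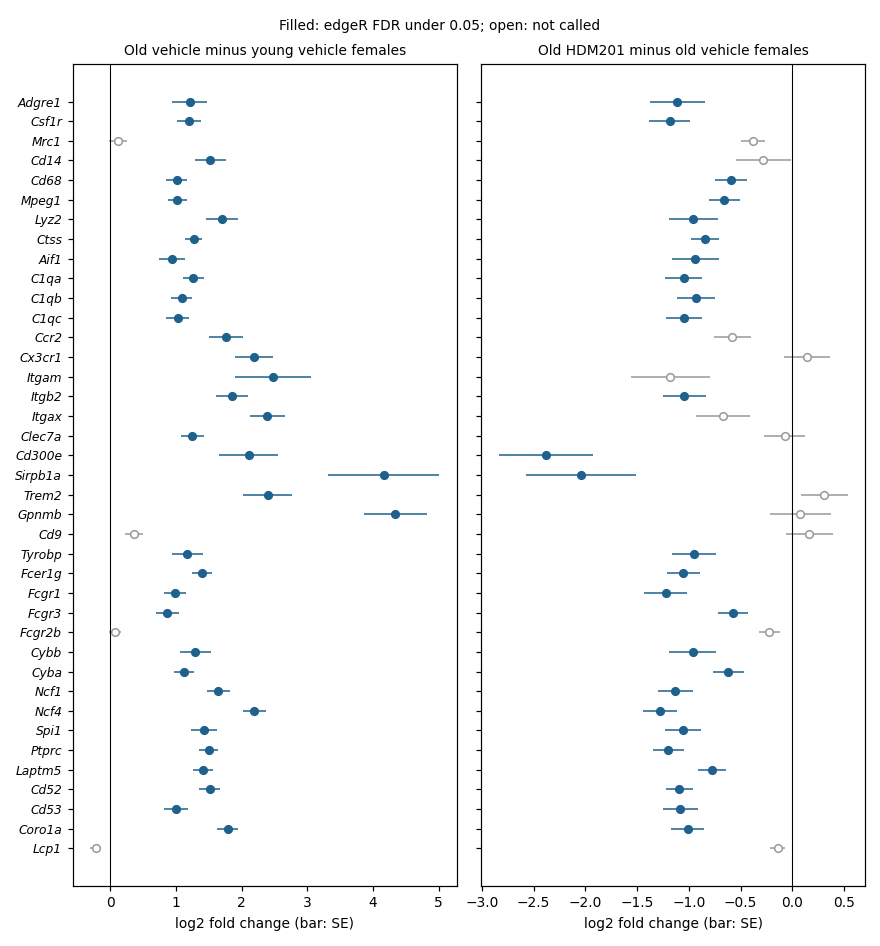
Log2 fold change with its SE for each of the 39 members in females, for old against young vehicle livers (left) and for HDM201 against vehicle in old livers (right); filled points passed an edgeR FDR of 0.05. Trem2, Gpnmb, Cx3cr1 and Clec7a are higher with age on the left and lie near 0 on the right.

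The surface and phagocyte genes included Csf1r, whose locus overlaps Hmgxb3 in the annotation and which encodes the receptor for the macrophage growth factors CSF1 and IL-34. It was at 59.7, 121, 72.2 and 104 CPM in the old vehicle females and at 33.6, 38.3, 42.9, 31.4 and 51.6 CPM in the old HDM201 females. Young vehicle females were at 49.4, 40.2, 33.8, 36.9 and 38.3 CPM. The treated and young mice covered much the same range and every old vehicle mouse lay above both. The log2 fold change was -1.18 ± 0.20 (SE, FDR = 0.00999) with HDM201, a 2.27-fold lower level, and 1.19 ± 0.18 (SE, FDR = 0.00061) with age. Adgre1, which encodes the F4/80 antigen of mouse macrophages, was at 14.5, 32.2, 13.8 and 27.6 CPM in old vehicle and 8.07, 8.18, 10.3, 9.27 and 15.5 CPM in old HDM201 females. The highest treated mouse reached above the lower vehicle mice, so the groups overlapped although the gene was called (-1.11 ± 0.27 SE, FDR = 0.037).

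Lyz2, the lysozyme of macrophages and neutrophils, stood at 74.4, 190.1, 100.2 and 146 CPM in old vehicle, 75.9, 54.0, 59.6, 54.5 and 87.2 CPM in old HDM201 and 58.1, 38.0, 31.6, 36.8 and 35.9 CPM in young females. It was lower with HDM201 (-0.96 ± 0.24 SE, FDR = 0.0409) and higher with age (1.70 ± 0.24 SE, FDR = 0.000389), and the treated mice overlapped the young ones through young vehicle female 1 alone. Ctss, the antigen-processing protease cathepsin S, ran from 39.3 to 63.8 CPM in old vehicle and from 25.8 to 36.2 CPM in old HDM201 females, without overlap (log2 fold change -0.84 ± 0.13 SE, FDR = 0.00987). The lysosomal glycoprotein gene Cd68, the pore-forming protein gene Mpeg1 and Aif1, whose product IBA1 binds actin, were lower too, with log2 fold changes of -0.59, -0.66 and -0.94 (FDR 0.0477, 0.0317 and 0.0392). Of the 9 genes of this role 7 were called lower with HDM201 and 8 higher with age.

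The other 2 genes of that role were Cd14 and Mrc1. Cd14, the coreceptor for bacterial lipopolysaccharide, was at 4.82, 10.0, 5.37 and 9.29 CPM in old vehicle and 9.42, 3.93, 6.37, 6.02 and 5.00 CPM in old HDM201 females, with a log2 fold change of -0.28 ± 0.27 (SE, FDR = 0.589), and was higher with age (1.52 ± 0.24 SE, FDR = 0.000748). Mrc1, the mannose receptor that sinusoidal endothelium also carries, was at 27, 38.0, 29.1 and 32.5 CPM in old vehicle, 21.1, 26.2, 21.3, 27.9 and 26.1 CPM in old HDM201 and 28.8, 38.6, 24.9, 26.5 and 29.2 CPM in young females. Old vehicle and old HDM201 females overlapped only through old vehicle female 1, at 27 CPM, and old HDM201 female 4, at 27.9 CPM. Young females overlapped both groups. Neither the difference with age (0.12 ± 0.13 SE, FDR = 0.535) nor that with HDM201 (-0.38 ± 0.12 SE, FDR = 0.0781) passed the test.

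The 3 chains of C1q, which starts the classical complement pathway and comes largely from macrophages, were all lower with HDM201 and higher with age. C1qa was at 57.6, 109, 65.4 and 88.1 CPM in old vehicle and 42.6, 32.9, 39.3, 32.1 and 47.8 CPM in old HDM201 females. For C1qb the same groups held 49.7, 88.9, 56.8 and 80.7 and 39.2, 31.0, 36.0, 28.3 and 47.4 CPM, and for C1qc 43.1, 84.5, 53.2 and 74.8 and 31.4, 28.0, 31.4, 27.5 and 38.0 CPM. In each case the lowest vehicle mouse lay above the highest treated mouse. The log2 fold changes with HDM201 were -1.05 ± 0.18 (SE, FDR = 0.00999), -0.93 ± 0.18 (SE, FDR = 0.0176) and -1.04 ± 0.17 (SE, FDR = 0.00987), and those with age 1.26, 1.09 and 1.02. Young females, at 31.0 to 39.8 CPM of C1qa, 28.0 to 40.0 of C1qb and 28.3 to 39.5 of C1qc, covered nearly the same range as treated old females.

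The receptors of monocytes and their integrins were less uniform. All 8 were higher with age in females (median log2 difference 2.15), and 3 of 8 were lower with HDM201. Cd300e, an activating receptor of monocytes, had the largest fold change of any member with HDM201 (log2 fold change -2.38 ± 0.46 SE, FDR = 0.016, 5.21-fold lower). Its values were 1.38, 6.54, 2.32 and 8.15 CPM in old vehicle and 0.677, 1.09, 0.899, 0.802 and 0.991 CPM in old HDM201 females. Old vehicle females 2 and 4 were well above the other 2. Sirpb1a, a signal-regulatory protein gene with close paralogs that make its read count uncertain, was at 0.530, 0.717, 0.609 and 2.36 and 0.260, 0.327, 0.409, 0.178 and 0.0944 CPM, or 87 and 27 reads in the whole groups, and differed by -2.05 ± 0.53 (SE, FDR = 0.0477). In the 5 young females 5 reads fell on it in all, and 4 of these mice had 0.

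Itgb2, the shared chain of the leukocyte integrins, was lower with HDM201 (-1.04 ± 0.21 SE, FDR = 0.0197) without overlap, at 11.5 to 24.7 CPM in old vehicle and 7.86 to 10.4 CPM in treated females. Its partner Itgam, or CD11b, was at 0.477, 2.78, 1.77 and 2.31 CPM in old vehicle and 0.833, 0.655, 0.940, 0.713 and 0.944 CPM in old HDM201 females. Old vehicle female 1 lay below all treated mice and the other 3 far above, and the fold change of -1.18 ± 0.38 (SE, FDR = 0.0946) was not called. Itgax, or CD11c, also missed the threshold (-0.67 ± 0.26 SE, FDR = 0.148), with old vehicle female 4 at 8.25 CPM. Both integrin genes were higher with age, by 2.47 and 2.39 on the log2 scale (FDR 0.00644 and 8.54e-05).

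Ccr2, the receptor that draws monocytes out of the marrow, was at 3.07, 3.05, 2.71 and 2.45 CPM in old vehicle and 1.61, 1.85, 2.33, 2.18 and 1.46 CPM in old HDM201 females. All treated mice lay below all vehicle mice, but the log2 fold change of -0.58 ± 0.18 (SE, FDR = 0.0859) did not pass. Cx3cr1, the fractalkine receptor, showed no such shift, at 2.91, 2.19, 1.66 and 2.45 CPM in old vehicle, 3.33, 1.69, 2.90, 2.50 and 2.36 CPM in old HDM201 and 0.254, 0.771, 0.572, 0.517 and 0.393 CPM in young females. Its log2 fold change was 0.14 ± 0.22 (SE, FDR = 0.755) with HDM201 and 2.19 ± 0.29 (SE, FDR = 0.000229) with age. Clec7a, the receptor Dectin-1 for fungal glucans, was likewise higher with age (1.25 ± 0.18 SE, FDR = 0.000389) and at 4.90 to 7.64 CPM in vehicle against 3.98 to 8.62 CPM in treated old females (-0.07 ± 0.20 SE, FDR = 0.87). The annotation lists Clec7a as a polymorphic pseudogene, and Cx3cr1 spans several other genes.

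None of the 3 TREM2 and lipid-handling genes was called with HDM201, and 2 of 3 were higher with age. Trem2, which senses lipids and signals through TYROBP, was at 0.445, 0.0514, 0.520, 0.632 and 0.835 CPM in young, 2.17, 2.82, 3.04 and 2.40 CPM in old vehicle and 4.11, 2.18, 3.80, 2.23 and 3.92 CPM in old HDM201 females. Every old mouse lay above every young one, and treated mice lay on both sides of the vehicle mice. The log2 fold change was 2.39 ± 0.38 (SE, FDR = 0.000683) with age and 0.31 ± 0.23 (SE, FDR = 0.462) with HDM201. Gpnmb, a glycoprotein gene of lipid-laden macrophages, rose from 0.127, 0, 0.312, 0.115 and 0.295 CPM in young to 2.17, 5.06, 4.81 and 2.26 CPM in old vehicle females. At 4.17, 2.51, 4.45, 4.90 and 2.88 CPM the old HDM201 females held the range of the vehicle mice. This was the largest difference with age of any member (4.34 ± 0.48 SE, FDR = 8.72e-05), resting on 16 reads in the young group and 289 in the old vehicle group, and it was 0.08 ± 0.29 (SE, FDR = 0.909) with HDM201. Cd9, a tetraspanin gene that other liver cells express too, passed neither test, with log2 fold changes of 0.36 and 0.17, and old HDM201 female 1 stood above its group at 51.1 CPM.

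**Figure D3:**
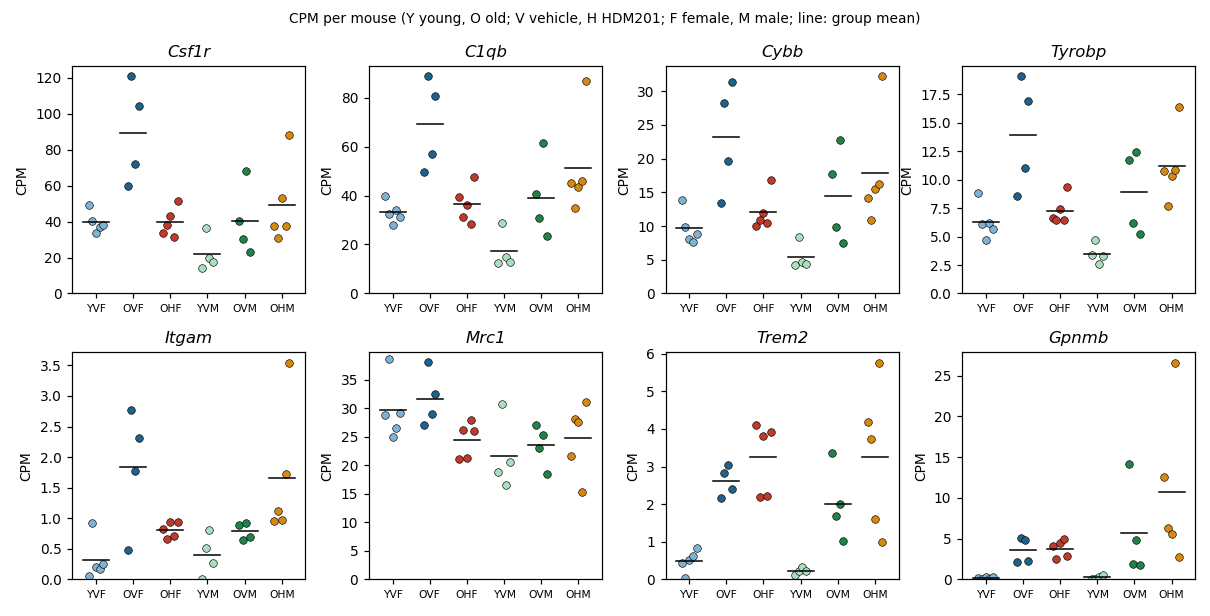
CPM per mouse of 8 members in the 6 groups (points are mice, lines are group means; each axis starts at 0). Csf1r, C1qb, Cybb and Tyrobp are high in old vehicle females and low in old HDM201 females, and Mrc1 overlaps between all groups. Among the mice with counts, every old mouse lies above every young mouse for Trem2 and Gpnmb.

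The signalling adaptors TYROBP and FCER1G, which carry the ITAM motif for TREM2, Fc receptors and others, were both lower with HDM201. Tyrobp was at 8.58, 19.1, 11 and 16.9 CPM in old vehicle and 6.66, 6.49, 7.39, 6.46 and 9.39 CPM in old HDM201 females (-0.95 ± 0.21 SE, FDR = 0.03). Fcer1g was at 12.8, 18.9, 13.3 and 20.4 and 7.86, 7.47, 7.72, 6.60 and 10.0 CPM in the same groups (-1.05 ± 0.16 SE, FDR = 0.0083). The groups of Fcer1g did not overlap, and those of Tyrobp did. Of the Fc receptors for IgG, the high-affinity receptor gene Fcgr1 differed by -1.22 ± 0.21 (SE, FDR = 0.00999) and the activating receptor gene Fcgr3 by -0.57 ± 0.14 (SE, FDR = 0.043) on the log2 scale. The inhibitory receptor gene Fcgr2b, expressed strongly by sinusoidal endothelium, was at 41.3 to 53.4 CPM in vehicle and 34.3 to 46.1 CPM in treated old females and was not called with HDM201 (-0.22 ± 0.10 SE, FDR = 0.223) or age (0.07 ± 0.10 SE, FDR = 0.626).

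All 4 genes of the phagocyte NADPH oxidase, which makes superoxide, were lower with HDM201 and higher with age. Cybb, the catalytic subunit, was at 13.5, 28.3, 19.6 and 31.4 CPM in old vehicle and 9.94, 10.9, 11.9, 10.5 and 16.9 CPM in old HDM201 females (-0.96 ± 0.23 SE, FDR = 0.035), with overlap at the ends of the ranges. Its membrane partner Cyba fell by 0.62 on the log2 scale (FDR = 0.0368). Ncf4 was at 4.77, 6.41, 4.98 and 6.32 CPM in old vehicle and 2.03, 2.07, 2.53, 2.05 and 2.92 CPM in old HDM201 females (-1.28 ± 0.16 SE, FDR = 0.00556), beside 1.27, 1.34, 1.35, 0.976 and 1.28 CPM in young females (2.19 ± 0.17 SE, FDR = 6.92e-06 with age). The 3 groups of females did not overlap, with treated mice between young and old vehicle mice. Ncf1 differed by -1.13 ± 0.17 (SE, FDR = 0.0083) with HDM201 and 1.64 ± 0.17 (SE, FDR = 6.12e-05) with age, and its locus overlaps Gtf2ird2.

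Spi1, which encodes the myeloid transcription factor PU.1, was at 9.75, 17.1, 13.7 and 18.0 CPM in old vehicle, 8.17, 5.95, 8.01, 6.02 and 7.31 CPM in old HDM201 and 8.01, 5.50, 4.31, 5.17 and 4.77 CPM in young females. Treated mice lay below all vehicle mice and among or above the young ones, with log2 fold changes of -1.05 ± 0.17 (SE, FDR = 0.00987) with HDM201 and 1.43 ± 0.20 (SE, FDR = 0.000359) with age. Ptprc, the CD45 phosphatase of all leukocytes, was at 13.7, 21.1, 15.1 and 22.0 CPM in old vehicle and 7.45, 7.09, 8.01, 7.22 and 9.62 CPM in old HDM201 females (-1.20 ± 0.15 SE, FDR = 0.00556). Cd52, a small surface glycoprotein of leukocytes, had the lowest FDR of any member with HDM201 (-1.09 ± 0.13 SE, FDR = 0.00423), at 8.48, 11, 8.91 and 10.2 and 4.01, 5.07, 5.31, 4.50 and 3.87 CPM. The lysosomal adaptor gene Laptm5, the tetraspanin gene Cd53 and the actin regulator gene Coro1a differed by -0.78, -1.08 and -1.01 on the log2 scale, each without overlap. Coro1a overlaps Bola2 and Cd52 overlaps Crybg2 in the annotation.

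Lcp1, which encodes the actin-bundling protein L-plastin of leukocytes, was the exception among these 7 genes. It was highest in young females, at 93.3, 91.6, 84.0, 76.4 and 76.6 CPM, against 72.4, 64.8, 73.0 and 74.9 CPM in old vehicle and 65.1, 74.1, 61.6, 60.4 and 64.5 CPM in old HDM201 females. Young and old vehicle mice did not overlap, yet the log2 fold changes of -0.22 ± 0.08 (SE, FDR = 0.0607) with age and -0.14 ± 0.07 (SE, FDR = 0.284) with HDM201 did not pass.

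Other genes of the same pathways were counted by list. Of 18 genes of the CSF1 axis and ITAM signalling, 17 were tested in old females, and 8 were lower and 0 higher with HDM201 (median -0.67), while 15 were higher with age (median 1.33). Its most abundant genes were the kinase gene Lyn, at 34.3 ± 3.80 CPM (SD, n = 4) in old vehicle and 29.1 ± 1.54 CPM (n = 5) in old HDM201 females (-0.24 ± 0.08 SE, FDR = 0.103), and the phosphatase gene Ptpn6 (-0.31 ± 0.11 SE, FDR = 0.127), and neither was among the 8. Of the 5 other oxidase and integrin subunits 3 were lower, with Itgal at -1.02 ± 0.17 (SE, FDR = 0.00999) and Rac2 at -1.06 ± 0.17 (SE, FDR = 0.00987). Of 11 further myeloid transcription factors 1 was lower and 0 higher, with Cebpb at -0.42 ± 0.21 (SE, FDR = 0.274) and Nr1h3 at -0.16 ± 0.09 (SE, FDR = 0.302), both of which hepatocytes also express. Among 8 genes of lipid-associated macrophages 2 were higher with HDM201, 0 were lower and the median was 0.43. With age 4 were higher and 1 was lower of 7 tested. The list summed to 443 to 717 CPM in young, 414 to 459 CPM in old vehicle and 480 to 597 CPM in old HDM201 females. Its most abundant genes were Ctsd (0.17 ± 0.10 SE, FDR = 0.318 with HDM201) and Fabp5 (0.39 ± 0.21 SE, FDR = 0.307). The 2 higher with HDM201 were Spp1 and Atp6v0d2, named after their values were seen. Spp1 was at 47.8 ± 6.28 CPM (SD, n = 4) in old vehicle and 91.5 ± 21.7 CPM (n = 5) in old HDM201 females.

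Markers of other cell types were measured in the same livers. The 8 Kupffer cell genes summed to 358 to 669.9 CPM in old vehicle, 301 to 423 CPM in old HDM201 and 300.0 to 398 CPM in young females. With HDM201 5 of 8 were lower and 0 higher, and with age 5 higher and 1 lower of 8 tested were called. Their most abundant genes were Slc40a1 (-0.03 ± 0.11 SE, FDR = 0.91) and Clec4f (-0.96 ± 0.16 SE, FDR = 0.00987), with differences for HDM201. The 7 monocyte genes summed to 9.70 to 17.4, 7.36 to 10.0 and 6.98 to 9.66 CPM in the same order, 0 of 5 tested were called with HDM201, and 3 higher and 0 lower of 4 tested with age. The most abundant reported here was Plac8 (-0.42 ± 0.16 SE, FDR = 0.148). The 10 neutrophil genes summed to 3.60 to 47.9, 3.55 to 5.94 and 0.127 to 1.55 CPM, and 1 of 3 tested was lower with HDM201, while 2 higher and 0 lower of 2 tested were called with age. Led by S100a9 (-1.49 ± 0.52 SE, FDR = 0.114) and Ngp (-3.35 ± 0.80 SE, FDR = 0.0369), every gene of that list had a count in both old groups of females, and 2 had none in young females. The 7 B and plasma cell genes summed to 18.6 to 37.2, 11.6 to 21.4 and 4.38 to 6.26 CPM, with 1 lower with HDM201 and 6 higher and 0 lower of 7 tested with age. The most abundant reported here was Jchain (-0.75 ± 0.38 SE, FDR = 0.27).

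Dendritic cell genes (1 of 6 tested lower with HDM201) summed to 13.7 to 20.9 CPM in old vehicle and 10.4 to 12.9 CPM in old HDM201 females, led by Zbtb46 (-0.27 ± 0.14 SE, FDR = 0.283) and Clec9a (-0.36 ± 0.19 SE, FDR = 0.292). T and NK cell genes (0 of 6 called) summed to 5.82 to 6.03 and 3.55 to 6.14 CPM, led by Nkg7 (-0.71 ± 0.26 SE, FDR = 0.134) and Cd3e (-0.18 ± 0.33 SE, FDR = 0.788). Erythroid genes (0 of 5 called) summed to 164 to 253 and 17.5 to 165 CPM, led by Hbb-bs (-1.50 ± 0.59 SE, FDR = 0.15) and Hba-a1 (-1.34 ± 0.57 SE, FDR = 0.189). Sinusoidal endothelial genes (1 of 6 lower) summed to 153 to 199 and 132 to 172 CPM, led by Clec4g (-0.16 ± 0.11 SE, FDR = 0.425) and Stab2 (-0.17 ± 0.09 SE, FDR = 0.283). Stellate cell genes (0 of 6 called) summed to 181 to 273 and 204 to 254 CPM, led by Dcn (-0.09 ± 0.11 SE, FDR = 0.683) and Rgs5 (0.35 ± 0.13 SE, FDR = 0.139). Hepatocyte genes (1 of 8 lower) summed to 98812 to 125395 and 105586 to 137912 CPM, led by Alb (0.10 ± 0.13 SE, FDR = 0.699) and Apoa1 (0.13 ± 0.12 SE, FDR = 0.579). The part of any of these cells in the members' differences was not tested.

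Set directly against young vehicle females, the old HDM201 females had 16 members higher and 1 lower of 38 tested, where 14.2% of 13995 genes were called higher and 12.6% lower. The median log2 fold change was 0.39, beside 0.0052 over all genes. Of the members, 13 did not overlap between the groups and were higher, as did 8.89% of all genes. Sirpb1a was too low to be tested. The largest differences were those of Gpnmb (4.41 ± 0.40 SE, FDR = 1.45e-05), Trem2 (2.70 ± 0.38 SE, FDR = 0.000269), Cx3cr1 (2.33 ± 0.27 SE, FDR = 8.74e-05) and Itgax (1.71 ± 0.23 SE, FDR = 0.000182). In contrast 0 of 3 C1q chains and 0 of 5 adaptors and Fc receptors were called, with differences of 0.20 ± 0.11, 0.15 ± 0.13 and -0.02 ± 0.11 (SE) for C1qa, C1qb and C1qc. Csf1r differed by 0.00 ± 0.13 (SE, FDR = 0.994) and Adgre1 by 0.09 ± 0.21 (SE, FDR = 0.788). The single member that was lower was Lcp1 (-0.37 ± 0.08 SE, FDR = 0.00522). This comparison shares mice with both female comparisons above. Mpeg1, at 0.36 ± 0.12 (SE, FDR = 0.039), was called in 3 of the 10 fits that left out a mouse, while the other 15 called higher and Lcp1 were called in all 10.

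The same comparisons were made in males. Between old and young vehicle males 18 of 38 tested members were higher in old liver and 0 were lower, where 2.76% of 13755 genes were called higher and 0.931% lower. The median log2 fold change was 1.37, beside -0.015 over all genes, and 20 members did not overlap between the groups, as did 7.33% of all genes in that direction. Trem2 was at 0.120, 0.227, 0.326 and 0.227 CPM in young and 3.35, 1.68, 2.01 and 1.01 CPM in old vehicle males (3.12 ± 0.45 SE, FDR = 0.00831). Gpnmb was at 0.0602, 0.114, 0.272 and 0.545 and 14.2, 1.86, 4.88 and 1.80 CPM (4.41 ± 0.84 SE, FDR = 0.0238). For both genes all old males with counts lay above all young males with counts. By FPKM, young vehicle male 5, which has no counts, had Trem2 at 0.932, above the lowest old vehicle male with counts at 0.605. Among the others called were Lyz2 (1.81 ± 0.27 SE, FDR = 0.00977), Coro1a (1.68 ± 0.25 SE, FDR = 0.00977), Cyba (1.34 ± 0.20 SE, FDR = 0.00886) and Ncf4 (2.09 ± 0.34 SE, FDR = 0.013). All 18 were also among the 35 members higher with age in females. The count depended on which mouse was left out. It was 5 without old vehicle male 4, young vehicle male 1 or young vehicle male 3, 6 without young vehicle male 4 and 7 without old vehicle male 2, and the 5 called in every fit were Lyz2, Coro1a, Cyba, Ncf4 and Trem2. DESeq2 called 30 members higher, where it called 5.41% of all genes higher. With a replicate block 2 were called, where 0.174% of all genes were. On FPKM, which adds the 2 males without counts, 0 were called on log2(FPKM + 1), log2(FPKM + 0.1) and log2(FPKM + 1) without a filter, where 0.25%, 0.355% and 0.0641% of all genes were. The difference between the sexes in the effect of age, tested as an interaction, was called for 0 members, with 0 at an unadjusted p under 0.05 and 0 by DESeq2, where 2.02% of 14721 genes were called as higher in females and 1.9% as lower. This contrast mixes sex with the age of the old mice, 20 months in females and 24 months in males.

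With HDM201 in old males, 0 of 38 tested members were called in either direction by edgeR and 0 by DESeq2, where 0% of 14109 genes were called higher and 0.00709% lower. The median log2 fold change of the members was 0.38, beside 0.014 over all genes, and 36 of 38 lay above 0. At an unadjusted p under 0.05 only Itgam was higher, 1 of 38, where 5.78% of all genes were. Itgam was at 0.890, 0.638, 0.919 and 0.690 CPM in old vehicle and 0.950, 1.12, 0.979, 1.72 and 3.54 CPM in old HDM201 males (1.09 ± 0.43 SE, FDR = 0.364). C1qb was at 40.7, 30.9, 61.6 and 23.6 CPM in vehicle and 45.2, 35, 43.7, 45.8 and 86.6 CPM in treated males, and Csf1r at 40.5, 30.5, 67.9 and 23.1 and 37.7, 30.8, 53.1, 37.5 and 88.1 CPM. In both genes old HDM201 male 5 was the highest of all and the other 4 treated mice lay within the range of the vehicle mice. Adgre1 was at 47.1 CPM in that mouse against 8.71 to 12.3 CPM in the other treated males. Without it the median over the members was 0.14, with 25 of 38 above 0 and 0 called. The same liver carried 3930.5 FPKM of the acute phase gene Saa1, against 149 to 497 FPKM in the other treated males. Its mean log2(FPKM + 1) over the members was 3.53. In young vehicle males with counts Saa1 ran from 43.2 to 5783 FPKM, and that mean from 1.64 to 2.16. The part of an acute phase response in the members' levels was not tested. Neutrophil genes summed to 1.65 to 38.6 CPM in old vehicle and 2.35 to 33.6 CPM in old HDM201 males, and B and plasma cell genes to 15.0 to 29.1 and 27.5 to 72.0 CPM. Old vehicle male 1, for which FPKM but no counts were analysed, stood above the other 4 old vehicle males in 36 of 39 members by FPKM, and does not enter these tests.

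**Figure D4:**
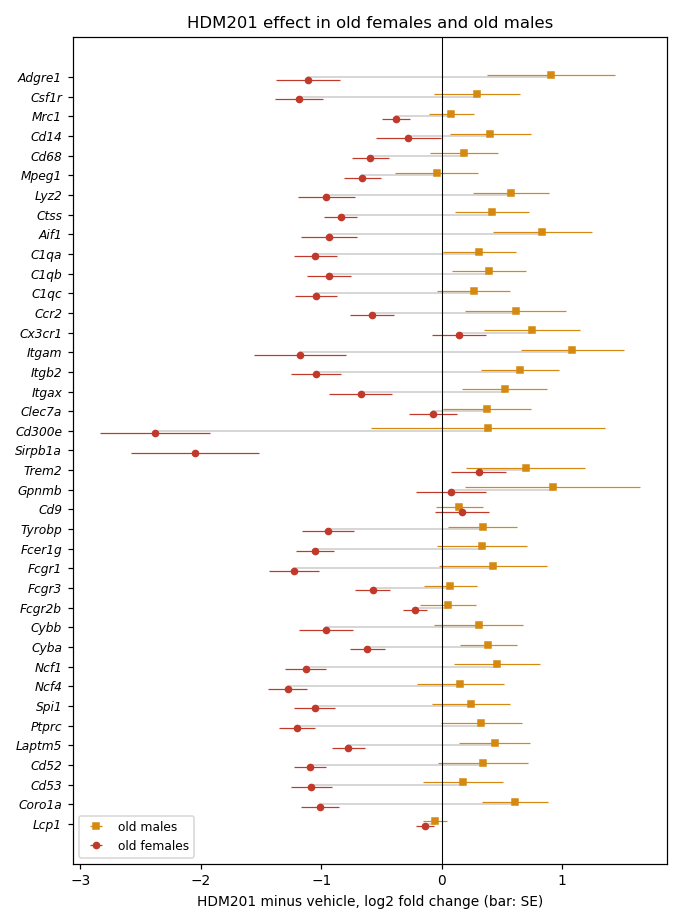
Log2 fold change with its SE between HDM201 and vehicle for each member in old females (circles) and old males (squares), joined by a grey line. In females 35 of 39 members lie below 0, and in males 36 of 38 lie above 0 with wide errors.

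Tested as an interaction over the 4 old groups, the HDM201 effect was not called as different between females and males for any member by edgeR, where 0.0735% of 14974 genes were called as higher in females and 0.0334% as lower. Sex and the age gap of the old mice, 20 months in females and 24 months in males, cannot be told apart here. At an unadjusted p under 0.05 the effect was lower in females for 29 of 39 members, as it was for 9.66% of all genes. The median difference of log2 fold changes was -1.28, beside -0.0016 over all genes. DESeq2 called 20 members as lower in females, where it called 2.11% of all genes so. The lowest FDR was that of Coro1a (-1.61 ± 0.34 SE, FDR = 0.0563), followed by Itgb2 (-1.69 ± 0.41 SE, FDR = 0.0629) and Ptprc (-1.52 ± 0.39 SE, FDR = 0.0695). Without old HDM201 male 5 the median was -1.06, 25 members had an unadjusted p under 0.05 and 0 were called. For Trem2 the difference was -0.39 ± 0.56 (SE, FDR = 0.768), for Gpnmb -0.84 ± 0.85 (SE, FDR = 0.641) and for Cd9 0.03 ± 0.32 (SE, FDR = 0.977). Up to 3 members were called when another mouse was left out, as without old HDM201 male 4.

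Young vehicle livers with counts already differed by sex. Young vehicle male 5, which has no counts here, does not enter this comparison. By FPKM it lay above all young males with counts for 35 members. Of 34 members tested 18 were higher in young females than in young males and 0 were lower, where 5.63% of 13875 genes were called higher and 4.91% lower. The median was 0.75, beside -0.004 over all genes, and 14 members did not overlap, as did 7% of all genes in that direction. C1qc was at 39.5, 28.3, 28.4, 32.3 and 31.4 CPM in young females and 14.3, 21.3, 10.8 and 13.4 CPM in young males (1.08 ± 0.18 SE, FDR = 0.00266). Fcgr2b, which did not change with age in females by the test, was at 42.2, 45.6, 40.7, 39.7 and 49.6 CPM in young females and 28.9, 31.4, 26.7 and 31.1 CPM in young males (0.55 ± 0.09 SE, FDR = 0.00359). In neither gene did the sexes overlap. Lyz2 (0.93 ± 0.19 SE, FDR = 0.00865) and Cd68 (0.95 ± 0.19 SE, FDR = 0.00812) were higher too, whereas 0 of the 5 monocyte and integrin genes tested were called. Cx3cr1, Itgam, Sirpb1a, Trem2 and Gpnmb were too low in young liver to be tested. The number called was 7 without young vehicle female 1 or young vehicle male 4, 8 without young vehicle male 3 and 11 without young vehicle male 1. Ctss, Lyz2, Cd68, C1qa, C1qc, Cyba and Fcgr2b were called in every such fit.

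Within groups most members went up and down together from mouse to mouse. After the group means were taken away from log2(CPM + 1), the median correlation (Pearson r) over the 741 pairs of members was 0.58 across 27 mice. These points share their libraries and liver pieces, so r is given as a description without a test. Correlated with the mean of the other members, Ctss reached 0.96, Laptm5 0.95 and Cybb 0.94, and 27 of 39 members exceeded 0.7. At the other end were Fcgr2b at -0.12, Trem2 at 0.04, Lcp1 at 0.10, Cx3cr1 at 0.12 and Gpnmb at 0.18. Genes outside the list that lay among the 5 nearest to the members' mean, of 12738 with a mean of at least 1 CPM, were Slc11a1 (0.96), a metal transporter of phagosomes, Nckap1l (0.95), a regulator of actin in blood cells, Pld4 (0.93), an endolysosomal nuclease, and Fyb (0.93), an adaptor of haematopoietic cells.

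**Figure D5:**
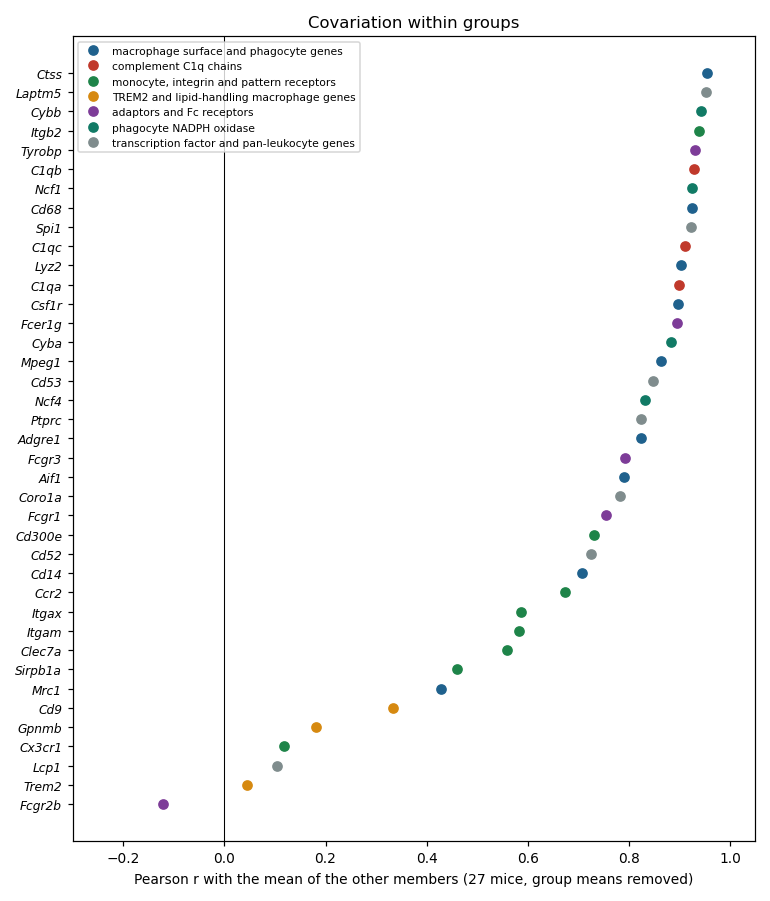
Pearson r of each member with the mean of the other members over 27 mice, after removal of group means from log2(CPM + 1); colours mark the roles. Most phagocyte, complement, adaptor and oxidase genes lie above 0.7, and Trem2, Gpnmb, Cx3cr1, Lcp1 and Fcgr2b lie below 0.2.

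Promoter sequences of 3 members that went together (Ctss, Cybb and C1qc) and of the 2 TREM2 genes that did not (Trem2 and Gpnmb) are shown so that both kinds can be read side by side. Each is the 250 bases before the annotated start, from RefSeq on build GRCm38.p6, written 5′ to 3′ on the strand of the gene, with motif matches in capitals. Capitals in Cybb and Trem2 mark the pattern TGANTCA, searched for AP-1 with any base at N, and both matches read TGAATCA. Those in C1qc mark AGGAAGT, a core motif of ETS factors such as PU.1, on the opposite strand.
Ctss, chr3:95526536-95526785, plus strand: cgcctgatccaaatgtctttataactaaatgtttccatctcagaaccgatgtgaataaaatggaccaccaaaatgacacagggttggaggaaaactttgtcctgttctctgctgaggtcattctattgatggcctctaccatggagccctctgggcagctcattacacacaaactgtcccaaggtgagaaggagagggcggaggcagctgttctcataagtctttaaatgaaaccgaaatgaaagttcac
Cybb, chrX:9469325-9469574, minus strand: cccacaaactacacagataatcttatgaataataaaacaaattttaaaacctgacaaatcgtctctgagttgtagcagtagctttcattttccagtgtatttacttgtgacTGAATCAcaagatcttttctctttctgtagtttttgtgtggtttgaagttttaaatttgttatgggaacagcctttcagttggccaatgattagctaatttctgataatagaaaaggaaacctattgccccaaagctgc
C1qc, chr4:136892915-136893164, minus strand: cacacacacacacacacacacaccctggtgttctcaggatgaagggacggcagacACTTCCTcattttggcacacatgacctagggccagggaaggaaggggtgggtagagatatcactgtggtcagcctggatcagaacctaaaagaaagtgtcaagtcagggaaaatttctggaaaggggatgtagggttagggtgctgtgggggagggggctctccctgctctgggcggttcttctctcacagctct
Trem2, chr17:48346151-48346400, plus strand: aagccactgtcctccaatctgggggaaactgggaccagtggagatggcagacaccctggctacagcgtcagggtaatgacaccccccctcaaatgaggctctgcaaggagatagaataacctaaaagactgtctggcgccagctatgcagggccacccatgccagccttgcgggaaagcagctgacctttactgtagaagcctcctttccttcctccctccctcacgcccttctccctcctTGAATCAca
Gpnmb, chr6:49036268-49036517, plus strand: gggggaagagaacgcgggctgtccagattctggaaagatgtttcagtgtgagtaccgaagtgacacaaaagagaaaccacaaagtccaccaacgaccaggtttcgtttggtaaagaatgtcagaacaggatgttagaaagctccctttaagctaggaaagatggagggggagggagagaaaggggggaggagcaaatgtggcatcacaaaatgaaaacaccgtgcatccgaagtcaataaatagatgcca

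Promoters of 30 of the 39 members were used, and 4 motifs were searched in them on both strands. The remaining members, among them Csf1r and Cd14 on chromosome 18, were not searched. AGGAAGT was present for 8 of the 30 (26.7%), namely Mrc1, Lyz2, C1qb, C1qc, Cd300e, Sirpb1a, Fcgr1 and Ptprc, and in 7.69% of all 32851 promoters of that length. TGANTCA was present for Cd68, Itgax, Trem2 and Cybb (13.3%), and in 6.75% of all promoters. In Trem2 the match lay 9 to 3 bases before the start and in Cybb 139 to 133 bases before it. The E-box TCANGTGA of the MITF and TFE family was in 0 of the 30 and in 3.45% of all promoters. A p53 half-site by its consensus was present for Cd68, Lyz2, Cx3cr1 and Ptprc (13.3%), and in 7.13% of all promoters. Members with several entries were counted once if any entry matched, and over genes rather than entries the shares of all were 8.8%, 7.82%, 3.98% and 8.2%. Matches describe letters in these windows and nothing more was read from them.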

How the data were processed

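RNA-seq of whole liver covered 29 mice by the labels. Reads were placed on mm10 with STAR by the authors, who deposited whole-number counts per gene from HTSeq, without normalization, for 27 mice. Counts of old vehicle male 1 and young vehicle male 5 were not analysed here. The deposited FPKM values were made by the authors with Cufflinks for all 29 mice. The strand setting is not given in the sources used here, so overlapping and near-identical genes are uncertain. Members whose locus overlaps another annotated gene were Csf1r, Mrc1, Ctss, Cx3cr1, Itgam, Cd9, Fcgr3, Fcgr2b, Cyba, Ncf1, Ptprc, Cd52, Coro1a and Lcp1. Ages are those of the labels, and the study's methods differ by a month for old females and young mice. The study states that 1 young male with an open wound was excluded and does not say which.

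Genes were kept by filterByExpr (count at least 10, total at least 15). Per comparison, edgeR 4.0.16 in R 4.3.3 gave quasi-likelihood tests after TMM scaling, with Benjamini-Hochberg adjustment over all genes kept and a threshold of 0.05. CPM used TMM factors over all 27 mice. Exon lengths and overlaps came from GENCODE M21 on GRCm38. Alternatives were DESeq2 1.42.0, RLE size factors, no filter, all 6 groups in one fit, a block for the replicate number, omission of each mouse, and limma 3.58.1 on log2(FPKM + 1) or log2(FPKM + 0.1), with empty FPKM cells read as 0 and genes under a mean FPKM of 0.1 dropped or kept. By a fixed rule all members are named, with the 2 most abundant genes of each of 14 context lists and the 5 genes nearest to the members' mean. Some genes that this rule names are not reported here. The members and lists were chosen with earlier results of these data known. The labels give separate mice as replicates.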

Additional observations from a re-analysis of the deposited data

Results flagged for a closer look

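The highest or lowest mouse of a group stood apart from the rest by Dixon's 95% criterion in 24 of 240 tests in groups of 4 or 5 mice, 234 for the 39 members in 6 groups and 6 for the members' mean, which gave none. Chance alone flags about 1 in 20 groups, and members that go together are not independent tests. Old HDM201 male 5 did so for Adgre1 at 47.1 CPM (others 8.71 to 12.3), Aif1 at 14.0 CPM (others 3.37 to 5.21), C1qb at 86.6 CPM (others 35 to 45.8), C1qc at 77.8 CPM (others 33.2 to 41.7), Cd300e at 9.95 CPM (others 0.430 to 0.979), Fcgr1 at 9.01 CPM (others 2.59 to 3.76) and Cybb at 32.3 CPM (others 10.9 to 16.2). Young vehicle male 2 did so for C1qb at 28.7 CPM (others 12.5 to 14.9), Cybb at 8.36 CPM (others 4.28 to 4.67), Ncf1 at 3.24 CPM (others 1.45 to 1.68) and Laptm5 at 14.0 CPM (others 8.08 to 9.02). Young vehicle female 2 stood apart for Itgam at 0.925 CPM (others 0.0635 to 0.246) and Fcgr1 at 3.60 CPM (others 2.41 to 2.49). Old vehicle female 4 stood apart for Itgax at 8.25 CPM (others 3.71 to 4.43) and Sirpb1a at 2.36 CPM (others 0.530 to 0.717). Young vehicle male 1 stood apart for Ptprc at 3.01 CPM (others 5.44 to 5.57) and Lcp1 at 84.4 CPM (others 99.8 to 102). Young vehicle female 1 stood apart for Lyz2 at 58.1 CPM (others 31.6 to 38.0). Young vehicle female 3 stood apart for Sirpb1a at 0.260 CPM (others all at 0). Young vehicle female 4 stood apart for Ncf4 at 0.976 CPM (others 1.27 to 1.35). Old vehicle female 2 stood apart for Fcgr2b at 53.4 CPM (others 41.3 to 42.9). Old HDM201 female 1 stood apart for Cd9 at 51.1 CPM (others 20.7 to 28.4). Old HDM201 female 5 stood apart for Cybb at 16.9 CPM (others 9.94 to 11.9). Old vehicle male 4 stood apart for Cd300e at 4.77 CPM (others 0.584 to 1.26).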

How the results depend on the processing

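RLE size factors kept every member count within 1.5 times. Members lower with HDM201 in old females, 27, became 11 in a fit of all 6 groups, and 5, 6 and 0 by limma on log2(FPKM + 1), on log2(FPKM + 0.1) and on log2(FPKM + 1) without a filter, and 14 to 27 when 1 mouse was left out. All genes called there, 758, became 1330 by DESeq2, 208 with all groups and 366 with the replicate block, and 185 to 956 without 1 mouse. Members higher with age in females were 30 to 36 in all fits, with 1 called lower by DESeq2 and with all groups and 0 to 1 without 1 mouse. In males the 18 higher with age became 30 by DESeq2, 28 without a filter, 29 with all groups, 0 in all 3 fits of FPKM and 5 to 25 without 1 mouse; all genes, 507, became 1318, 968 and 2007 in the first 3 and 144 to 579 without 1 mouse. The FPKM fits add the 2 males that lack counts. Cyba, at 0 FPKM in every male, did not enter those of males. For HDM201 in old males no member was called in any fit, and all genes called, 1, became 162 by DESeq2, 22 without a filter, 6 with all groups and 0 to 13 without 1 mouse. By sex in young mice the 18 members became 7 to 23 without 1 mouse, and all genes, 1462, became 2483 with all groups and 764 to 1864. For the interaction of sex and HDM201 the 0 members became 20 by DESeq2, 4 without a filter, 1 with all groups and 0 to 3 without 1 mouse, and all genes, 16, became 643, 122 and 0 to 314 by the first, the second and the omissions. For sex and age all genes, 577, became 1187 by DESeq2 and 207 to 1193. The causes were not tested, and no member that was called changed sign.

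Deviations of same-numbered mice correlated with r from -0.23 to 0.24, not above 0.1 in every pair of any comparison. The labels state no pairing by these numbers, and so few pairs cannot decide whether there was one. With the replicate block 23 members were lower with HDM201 in old females, 35 higher with age in females, 2 higher with age in males and 13 higher in young females than males, and all genes called fell to 29 with age in males, 858 by sex, 0 for sex and HDM201 and 183 for sex and age.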

Other observations

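The 2 males without counts can be seen by their deposited FPKM. Old vehicle male 1 had a mean log2(FPKM + 1) over the 39 members of 4.46, where the 4 old vehicle males with counts lay between 2.13 and 3.06 and the 5 old HDM201 males between 2.57 and 3.53. It was above all 4 for 36 members, and for 34 after each mouse was scaled to its median FPKM over 9636 expressed genes, which was 12.2 in this mouse and 8.46 to 9.37 in the other 4. Cyba was at 0 FPKM in every male despite its counts, so it entered the means as 0 and could not lie above. Group means in old males were 2.64 ± 0.43 (SD, n = 4) for vehicle and 3.03 ± 0.35 (n = 5) for HDM201, and 3.00 ± 0.90 (n = 5) for vehicle with this mouse.

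Young vehicle male 5 had a mean of 3.21, against 1.64 to 2.16 in the other 4 young males, and lay above all of them for 35 members, or 36 after the same scaling. Its mean also lay above those of the 4 old vehicle males with counts, at 2.13 to 3.06. Its acute phase transcripts Saa1 and Saa2 stood at 26524 and 28728 FPKM, while the other young males ranged from 43.2 to 5783 and from 19.6 to 5074 FPKM.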
